A study of Homo sapiens with 8 samples.

Results

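The genes described here encode 4 neuroligins, 2 neurexins and 3 scaffold proteins of the postsynaptic density: NLGN1, NLGN2, NLGN3, NLGN4X, NRXN2, NRXN3, DLG4, DLGAP3 and SHANK1. These 9 genes were picked by symbol from the 47591 genes of the expression table, and all 9 passed the filter on low values (a mean over the 8 libraries of 10 normalized counts or more), as 18947 genes did. They were chosen with their fold changes between the cell lines known, so those fold changes, and the counts of them past the thresholds of the study, are given as a description and nothing is concluded from a test on them. Neuroligins are adhesion proteins of the postsynaptic membrane that bind neurexins on the presynaptic side, and the pair bridges the synaptic cleft. The intracellular tail of a neuroligin binds the scaffold PSD-95, encoded by DLG4, which is linked through SAPAP proteins such as DLGAP3 to SHANK proteins and from there to the actin cytoskeleton. Several of these genes, among them NLGN3, NLGN4X, SHANK1 and the neurexins, are known from the genetics of autism.

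The RNA-seq libraries were made from polyadenylated RNA of SH-SY5Y, an established human neuroblastoma line of sympathoadrenal origin, to ask how the transcriptome differs when the splicing factor PRPF40B is reduced. The G2 line (CRISPR/Cas9 with a guide against PRPF40B) gave 3 libraries, with 3 more from the SCR line (CRISPR/Cas9 with a scrambled guide) and 2 from the unedited WT cells. Edited cells were selected with puromycin, grown as single colonies after limiting dilution and kept in puromycin, while WT cells had neither guide nor selection. Each guide is represented by 1 line, so the guide and the history of the colony cannot be told apart, and the libraries of a line are labelled as biological replicates without further detail of their cultures.

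The values are normalized read counts: each library's counts are divided by its size factor, and gene length is not accounted for. Recovered totals ran from 59804395 to 81080747 counts per library. Since 71.3% to 75.6% of the small counts were multiples of 3, about 3 counts were taken to correspond to 1 fragment. PRPF40B itself had 840, 841 and 918 normalized counts in G2, 1686, 1672 and 1669 in SCR, and 1972 and 1668 in WT. All 3 G2 libraries had less of it than any of the 5 control libraries. The adrenergic markers of the line (PHOX2A, HAND2, GATA3, ISL1, TH, DBH and CHGA) summed to between 84080 and 92404 normalized counts in the G2 libraries, between 168392 and 181351 in SCR and between 181781 and 196571 in WT, and TH was at the detection floor in G2. Of these 7 markers, 6 fell in G2/SCR and 5 in G2/WT. None was called in SCR/WT by limma, where 4 of them had an unadjusted p of at most 0.05 at a ratio below 1.5-fold. The mesenchymal markers (VIM, FN1, YAP1, WWTR1, SNAI2, PRRX1, TWIST1, CD44 and NOTCH2) went the other way, with 237982 to 243166 in G2, 111083 to 118331 in SCR and 81314 to 93102 in WT, nearly all of it VIM and TWIST1, and FN1 was at or near 0 in every library. Of the 8 that were tested, 7 rose in each comparison with G2 and 2 rose in SCR/WT. Neuron markers (STMN2, ELAVL4, TUBB3, MAP2 and RBFOX3) summed to 259583 to 261748 in G2, 308173 to 316677 in SCR and 267092 to 277208 in WT, with 1 of the 4 tested falling in each comparison with G2 and 1 rising in SCR/WT. Markers of Schwann cells and glia (SOX10, S100B, ERBB3 and GFAP) summed to 145 to 234 in G2, 376 to 590.3 in SCR and 421 to 454 in WT, with SOX10 and GFAP at the floor in all lines, and of the 2 tested 1 fell in each comparison with G2 and limma called none in SCR/WT, where 0 had an unadjusted p of at most 0.05. The adrenergic and mesenchymal sums set G2 apart from both controls, so they go together with any difference below that sets G2 apart from both. The part of the markers in the differences given below was not tested. In bulk RNA, fewer cells of a type and less RNA per cell cannot be told apart.

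Among the neuroligins, the lines differed most in NLGN4X and NLGN1, and in opposite directions. NLGN4X lies on chromosome X from 5890042 to 6228867 (hg38, minus strand). It had 517, 507 and 521 normalized counts in SCR, 160 and 233 in WT, and 0, 2.19 and 8.60 in G2. The G2 values correspond to 0, 2 and 8 recovered counts, and none exceeded the floor of 9 recovered counts taken as about 3 fragments. All 3 G2 libraries were thus at the floor while every control library was well above it. Measured against the floor, G2 had at least 55.2-fold lower counts than SCR and at least 21.1-fold lower counts than WT. The controls were themselves apart, with means of 515 ± 7.29 for SCR (SD, n = 3) and 197 ± 51.7 for WT (SD, n = 2), a ratio of 2.62 without overlap.

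NLGN4X overlaps 1 feature of the table that had any counts and closely resembles another gene, and reads shared with them were not measured. LOC105373156, a locus that overlaps the 5′ end of NLGN4X over 2510 bp, had 64.3, 50.7 and 65.8 normalized counts in SCR, 11.2 and 8.94 in WT, and 2.82, 0 and 0 in G2. It was above the floor in SCR, and both WT and G2 were at the floor. The table also holds NLGN4Y, a near-identical copy of NLGN4X. Each copy has its own counts. How reads that match several genes were counted is not given in the sources used here, so the division of such reads between the 2 copies was not tested. The nearest tested gene beyond the overlapping locus, PUDP at a distance of 820 kb, had means of 1246 in G2, 1363 in SCR and 1556 in WT and was not called in any comparison.

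NLGN1, the neuroligin best known from glutamatergic synapses, lies on chromosome 3 from 173395952 to 174294372. Its normalized counts were 162, 198 and 176 in G2, 32.7, 43.2 and 50.6 in SCR, and 22.3 and 61.6 in WT. The lowest G2 library had more than the highest control library, and SCR and WT overlapped. The mean was 4.24 times that of SCR and 4.26 times that of WT, with log2 fold changes of 2.08 (standard error 0.32) against SCR and 2.23 (standard error 0.36) against WT. The G2/WT value depended on the pair of WT libraries, since it was 1.52 without WT replicate 1 and 2.94 without WT replicate 2.

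NLGN3, found at both excitatory and inhibitory synapses and placed on chromosome X from 71144835 to 71171201, had 264, 260 and 246 in G2, 188, 188 and 174 in SCR, and 132 and 172 in WT. The 3 lines did not overlap and were ordered G2, SCR, WT. The difference was modest, 1.40-fold between G2 and SCR (log2 fold change 0.49, standard error 0.13) and 1.69-fold between G2 and WT (0.77, standard error 0.15).

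NLGN2, the neuroligin of inhibitory synapses, lies on chromosome 17 from 7407845 to 7419860. It had 1081, 1210 and 1257 in G2, 1300, 1220 and 1477 in SCR, and 1203 and 1274 in WT. All 3 lines overlapped. Its log2 fold changes were -0.17 (standard error 0.09) in G2/SCR and -0.07 (standard error 0.10) in G2/WT, and the latter was 0.12 when all libraries were scaled to the same total.

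**Figure D1:**
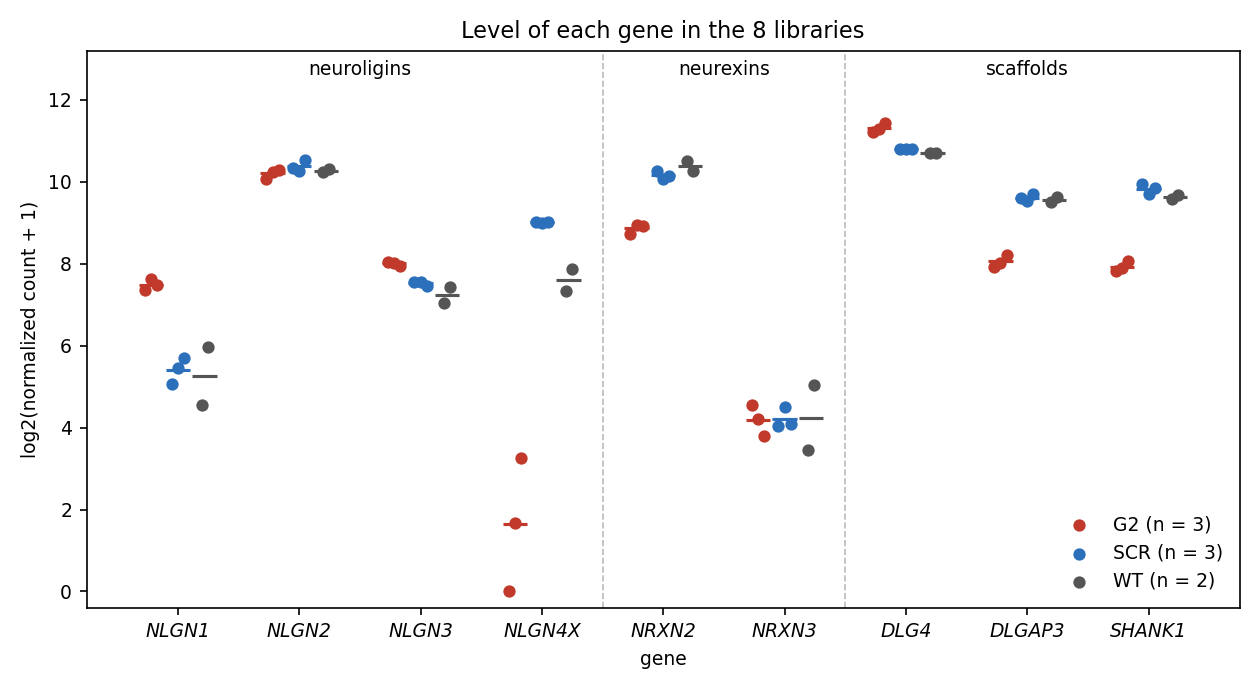
Level of the 9 genes on the scale log2(normalized count + 1), with 1 point per library and a bar at the mean of each line (G2, n = 3; SCR, n = 3; WT, n = 2). NLGN1 lies higher in G2 (162 to 198 normalized counts) than in the controls, NRXN2, DLGAP3 and SHANK1 lie lower, and NLGN4X drops to between 0 and 8.60 normalized counts.

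The bases upstream of the neuroligin start sites are shown as a description of the 4 genes, which encode closely related proteins. Any part of these bases in the differences between the lines was not tested. RefSeq promoter sequences (GRCh38.p14) were matched by symbol for 6 of the 9 genes, those of the neuroligins, NRXN3 and DLG4. For each neuroligin, the 250 bases before the start site nearest the 5′ end of the gene in the table are printed 5′ to 3′ on the strand of the gene. Capitals mark matches, on either strand, to the GC box (GGGCGG or CCGCCC), the TATA box (TATAAA or TTTATA), the CCAAT box (CCAAT or ATTGG) and the E-box (CACGTG), and neighbouring matches may overlap.
NLGN1, chr3:173395702-173395951, plus strand: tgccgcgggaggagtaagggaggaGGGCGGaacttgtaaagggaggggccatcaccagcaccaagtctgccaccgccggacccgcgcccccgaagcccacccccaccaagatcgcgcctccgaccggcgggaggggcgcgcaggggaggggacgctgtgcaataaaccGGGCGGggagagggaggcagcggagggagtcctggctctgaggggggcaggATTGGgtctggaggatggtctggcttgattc
NLGN2, chr17:7407595-7407844, plus strand: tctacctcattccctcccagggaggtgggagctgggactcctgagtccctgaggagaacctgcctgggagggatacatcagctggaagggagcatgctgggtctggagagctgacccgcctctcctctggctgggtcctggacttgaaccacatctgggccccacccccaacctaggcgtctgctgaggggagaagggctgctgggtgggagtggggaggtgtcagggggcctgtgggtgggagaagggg
NLGN3, chrX:71144591-71144840, plus strand: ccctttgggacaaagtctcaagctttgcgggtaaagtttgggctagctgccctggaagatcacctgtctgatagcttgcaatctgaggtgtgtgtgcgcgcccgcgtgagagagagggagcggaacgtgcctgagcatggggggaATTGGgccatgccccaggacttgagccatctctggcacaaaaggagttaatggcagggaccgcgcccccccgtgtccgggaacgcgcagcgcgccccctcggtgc
NLGN4X, chrX:6228868-6229117, minus strand: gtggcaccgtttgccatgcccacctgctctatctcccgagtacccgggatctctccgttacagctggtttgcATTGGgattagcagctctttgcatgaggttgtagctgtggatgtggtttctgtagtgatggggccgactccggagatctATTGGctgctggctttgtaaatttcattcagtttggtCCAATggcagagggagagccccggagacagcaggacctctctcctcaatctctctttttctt

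The stretch before NLGN1 holds 2 GC boxes and 1 CCAAT box, that before NLGN3 holds 1 CCAAT box, that before NLGN4X holds 3 CCAAT boxes, and that before NLGN2 holds none of the 4 motifs. Over the 35116 promoters of the table, windows of this length held a GC box in 42.6%, a TATA box in 10.7%, a CCAAT box in 32.0% and an E-box in 6.34%. The content of G and C was 69.2% for NLGN1, 64.8% for NLGN2, 62.0% for NLGN3 and 52.4% for NLGN4X, against a median of 58.0% over all promoters. CpG dinucleotides numbered 19, 2, 16 and 7 in the same order, against a median of 11. Another RefSeq start site of NLGN1 had a window with 67.2% G and C, 17 CpG dinucleotides, 2 GC boxes and 1 CCAAT box. RefSeq holds another start site of NLGN4X, inside the gene, whose window had 68.0% G and C, 20 CpG dinucleotides and 2 CCAAT boxes, so that the low values belong to the outer site alone. The printed window of NLGN4X lies within LOC105373156.

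The neurexins divided into a low and a more abundant gene. NRXN2, on chromosome 11 from 64606174 to 64723197, had 425, 492 and 486 normalized counts in G2, 1227, 1076 and 1125 in SCR, and 1466 and 1235 in WT. Every G2 library had fewer counts than every control library, and SCR and WT did not overlap. WT was the higher of these 2 lines as deposited, but the SCR/WT log2 fold change of -0.24 became 0.04 when all libraries were scaled to the same total. The mean was 2.44-fold lower in G2 than in SCR (log2 fold change -1.29, standard error 0.09) and 2.89-fold lower than in WT (-1.53, standard error 0.11). Several unnamed loci of the table overlap NRXN2, but the highest of them had means of 9.02 in G2, 14.2 in SCR and 26.8 in WT.

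NRXN3, on chromosome 14 from 78170373 to 79868291, was near the lower limit of the measurement, with 22.6, 17.5 and 12.9 in G2, 15.3, 21.6 and 15.9 in SCR, and 9.93 and 31.8 in WT. The lines overlapped throughout, and the WT libraries alone spanned the range of the other 6. In G2/SCR its log2 fold change of -0.01 had a standard error of 0.48, so that a modest difference in either direction was not detectable at this depth.

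Of the postsynaptic scaffolds, DLGAP3 and SHANK1 were lower in G2 and DLG4 was slightly higher. DLGAP3 encodes SAPAP3, the link between PSD-95 and the SHANK proteins, and lies on chromosome 1 from 34865436 to 34929650. It had 243, 260 and 296 normalized counts in G2, 782, 738 and 837 in SCR, and 725 and 787 in WT. The 3 G2 libraries lay below all 5 control libraries, and SCR and WT overlapped. The mean was 2.95-fold lower than in SCR (log2 fold change -1.56, standard error 0.10) and 2.84-fold lower than in WT (-1.51, standard error 0.11).

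SHANK1, a large scaffold of the deeper layer of the postsynaptic density, lies on chromosome 19 from 50659255 to 50719802. Its normalized counts were 224, 239 and 268 in G2, 980, 828 and 924 in SCR, and 765 and 825 in WT. G2 was again below every control library, and the WT libraries were just below the SCR libraries. The mean was 3.74-fold lower in G2 than in SCR (log2 fold change -1.90, standard error 0.10) and 3.27-fold lower than in WT (-1.71, standard error 0.11), the largest difference of the 5 neurexin and scaffold genes in either comparison.

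DLG4, on chromosome 17 from 7187187 to 7220050, had 2372, 2505 and 2750 in G2, 1795, 1785 and 1776 in SCR, and 1663 and 1658 in WT. The 3 lines did not overlap and the replicates of SCR and of WT lay close together. The mean was 1.42-fold higher in G2 than in SCR (log2 fold change 0.51, standard error 0.07) and 1.53-fold higher than in WT (0.61, standard error 0.07). The 5′ end of DLG4 overlaps ACADVL, an enzyme gene of mitochondrial fatty acid oxidation on the opposite strand, over 2926 bp from 7217125 to 7220050. ACADVL was several times more abundant, with 19644, 20155 and 20458 in G2, 9604, 9734 and 10296 in SCR, and 12512 and 10895 in WT. The strand setting of the counting is not given in the sources used here, so the part of ACADVL reads in the DLG4 count was not tested.

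**Figure D2:**
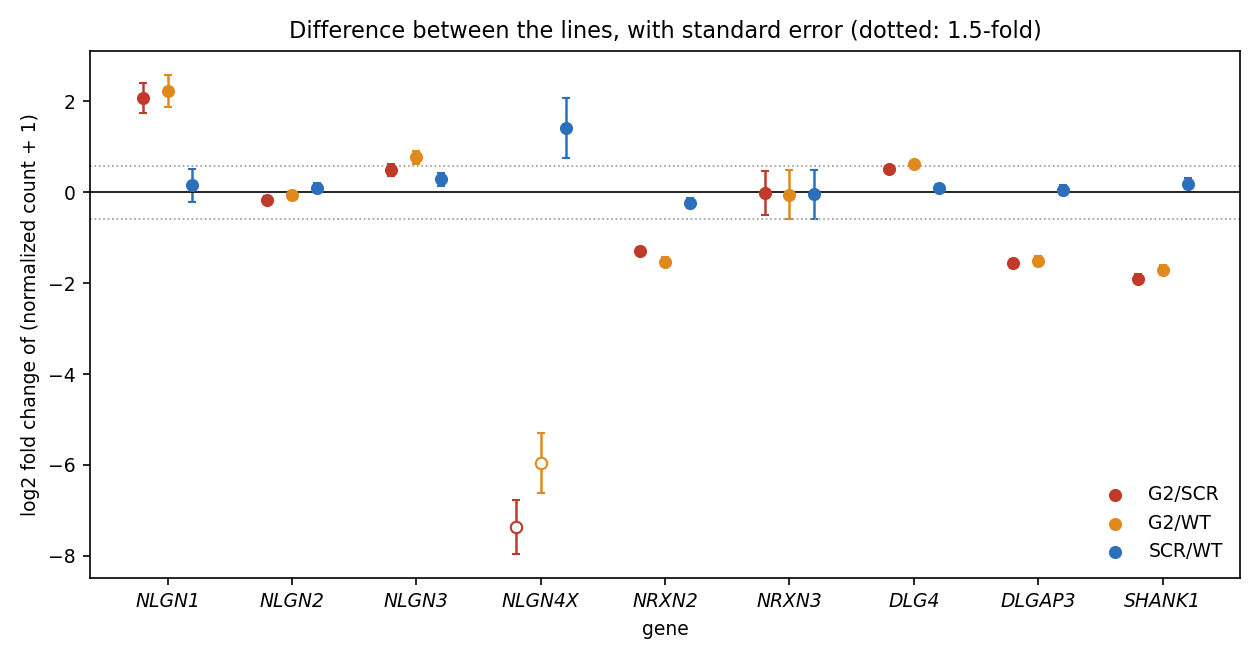
Log2 fold changes of the 9 genes on the scale of normalized count + 1, for G2/SCR, G2/WT and SCR/WT, with standard errors from the fit over all 8 libraries and dotted lines at 1.5-fold. Open circles mark NLGN4X, whose G2 libraries are at the floor, so that -7.37 and -5.96 depend on the pseudocount. NLGN1 is the gene furthest above 0, and NRXN2, DLGAP3 and SHANK1 lie between -1.29 and -1.90.

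With the thresholds of the study (a 1.5-fold difference and an unadjusted p of 0.05), 1 of the 9 genes was called higher (NLGN1) and 4 lower (NLGN4X, NRXN2, DLGAP3 and SHANK1) in G2/SCR, where 15.1% of all tested genes were called higher and 11.8% lower. In G2/WT, 3 were called higher (NLGN1, NLGN3 and DLG4) and the same 4 lower, where the shares over all tested genes were 17.7% and 12.2%. In SCR/WT limma called none of the 9, against 10.7% higher and 5.63% lower over all tested genes, and 1 gene, NRXN2, had an unadjusted p of at most 0.05 at a ratio below the fold threshold. The 2 comparisons with G2 share the G2 libraries and are not independent. Since the genes were chosen with their fold changes known, nothing is read from these counts. The libraries of the lines did not overlap for 7 of the 9 genes in each comparison with G2 and for 5 in SCR/WT, where 61.8%, 65.4% and 55.3% of all tested genes had no overlap. The median log2 fold change of the 9 was -0.17, -0.07 and 0.10 in G2/SCR, G2/WT and SCR/WT, beside -0.01, 0.00 and 0.01 over all tested genes. The call on NLGN4X in SCR/WT depended on the fit. Its log2 fold change of 1.41 (standard error 0.66) shared its spread with the G2 libraries at the floor, and a fit of the SCR and WT libraries alone called NLGN4X higher in SCR, as did scaling all libraries to the same total, a pseudocount of 5 and leaving out G2 replicate 1 or G2 replicate 3. NLGN1 was called higher in SCR than in WT without WT replicate 2 (log2 fold change 0.86), while without WT replicate 1 the value was -0.56. The call of DLG4 in G2/WT was lost without G2 replicate 3, and that of NLGN3 without WT replicate 1, where the log2 fold change was 0.58.

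Per kilobase of exon (the union of exons in GENCODE 44), the order of the 9 genes also differed between the lines. In SCR, NLGN2 stood first with 233 ± 23.0 (SD, n = 3) normalized counts per kb, followed by DLGAP3 with 194 ± 12.3 and DLG4 with 174 ± 0.930. SHANK1 and NRXN2 came next with 86.8 ± 7.33 and 81.6 ± 5.47 and overlapped each other, and NLGN4X followed with 69.2 ± 0.979. NLGN3 (12.7 ± 0.559), NLGN1 (2.35 ± 0.504) and NRXN3 (1.13 ± 0.224) made up the low end. In WT the first 3 and the last 4 genes had the same order, NRXN2 stood above SHANK1, and NLGN1 and NRXN3 overlapped. In G2, DLG4 came first with 247 ± 18.6 (SD, n = 3) per kb, above NLGN2 with 207 ± 15.9, and a gap separated both from DLGAP3 with 65.8 ± 6.67. NRXN2 (33.4 ± 2.62), SHANK1 (23.2 ± 2.12), NLGN3 (17.9 ± 0.660) and NLGN1 (9.98 ± 1.02) followed without overlap, and only NRXN3 and NLGN4X overlapped at the bottom.

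Set against their close relatives on the same scale, the neuroligins and scaffolds took other shares of their families. NLGN2 was the major neuroligin in every library, with 87.9% ± 0.676 of the neuroligin counts per kb in G2, 73.3% ± 1.74 in SCR and 84.7% ± 2.95 in WT (SD over 3, 3 and 2 libraries). NLGN4X was the second neuroligin of the controls, with 20.4% to 22.9% in the SCR libraries and 8.88% and 11.6% in WT, and it held at most 0.466% in G2. NLGN3 and NLGN1 held 6.90% to 8.50% and 3.97% to 4.59% in the G2 libraries, where NLGN3 was thus second. The summed neuroligin level was 235 ± 16.5 per kb in G2, 317 ± 23.6 in SCR and 256 ± 19.2 in WT, so G2 and WT overlapped.

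In the scaffold families, DLGAP3 and SHANK1 took smaller shares in G2. DLGAP3 held 17.5% ± 0.943 (SD, n = 3) of the SAPAP family per kb in G2, against 43.8% ± 1.68 in SCR and 47.4% ± 2.78 (n = 2) in WT. DLGAP4 made up most of the rest, with 2689 ± 121 normalized counts in G2, 2155 ± 46.1 in SCR and 1807 ± 101 in WT, and was not called in any comparison. SHANK1 held 27.7% ± 1.90 of the SHANK family in G2, 49.7% ± 0.875 in SCR and 55.9% ± 0.608 in WT. SHANK2 fell as well, from 401 ± 8.05 in SCR and 324 ± 91.7 in WT to 154 ± 15.5 in G2 (log2 fold changes -1.38 and -1.05, adjusted p = 9.1e-06 and 0.00022, limma), while SHANK3 had 749 ± 94.3 in G2, 949 ± 58.3 in SCR and 610 ± 2.49 in WT. SHANK3 was thus the major SHANK gene per kb in G2 and SHANK1 in the controls. DLG1 and DLG4 shared most of the PSD-95 family in every line, with 50.1% ± 3.13 for DLG4 in G2, 42.1% ± 0.804 in SCR and 39.2% ± 3.21 in WT.

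**Figure D3:**
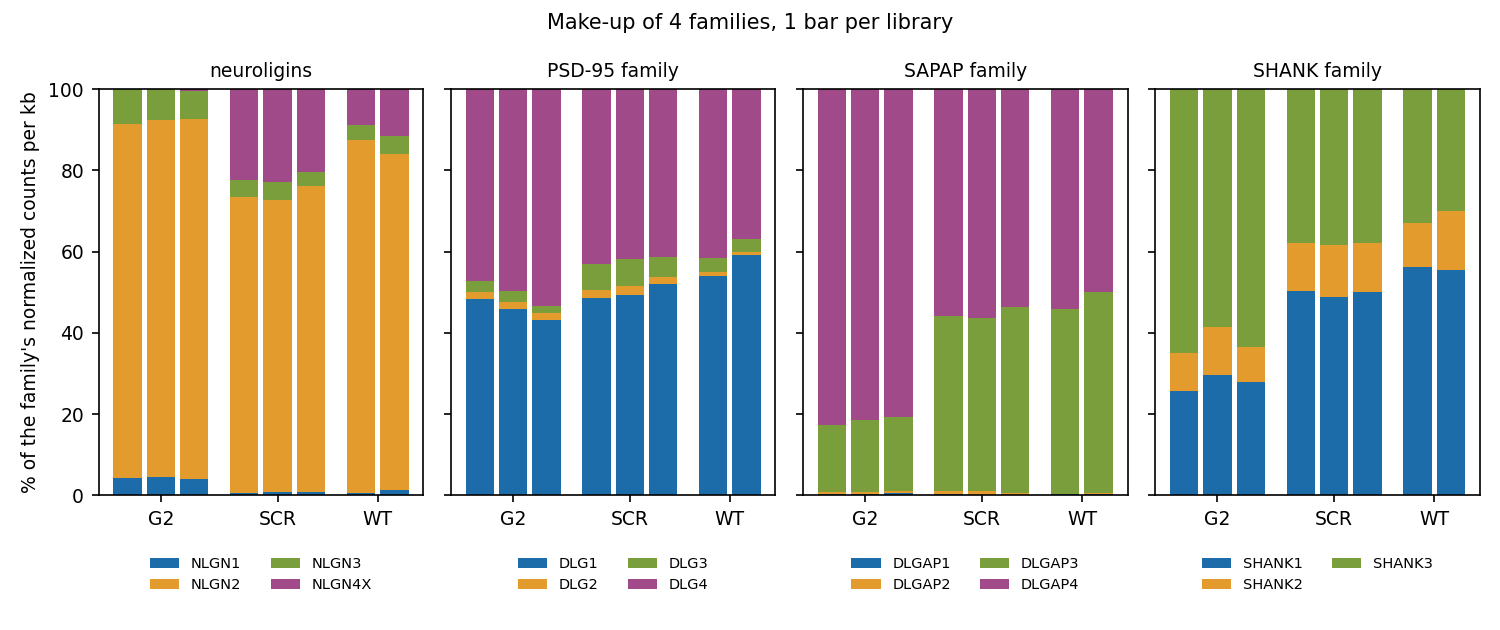
Share of each gene in the normalized counts per kb of its family (%), with 1 bar per library, in the order G2, SCR, WT. NLGN4X takes 20.4% to 22.9% of the neuroligins in SCR and next to nothing in G2, and DLGAP3 and SHANK1 take smaller shares in G2 than in the controls.

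The partners of the 9 genes at the synaptic contact were followed in 3 lists that leave the 9 out. The first held 66 genes of trans-synaptic adhesion in the table, of which 52 were tested. Of these, 17 rose and 14 fell in G2/SCR, as in G2/WT, and 12 rose and 8 fell in SCR/WT (13 and 5 with all libraries scaled to the same total), with median log2 fold changes of -0.07, 0.05 and -0.05. Over all tested genes, in the same order of comparisons, 15.1%, 17.7% and 10.7% were called higher, with 11.8%, 12.2% and 5.63% lower. Genes of the list were called in both directions in all 3 comparisons. In both comparisons with G2, 14 genes rose and 8 fell, of which 8 and 7 were not called in SCR/WT, and FLRT1 went opposite ways.

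Among the secreted and membrane ligands of the neurexins, the cerebellins, which tie neurexins to postsynaptic delta receptors, fell in 2 of 3 cases in G2/SCR and in 3 of 3 in G2/WT. CBLN1 fell to 181 ± 34.1 (SD, n = 3) in G2 from 532 ± 37.9 (n = 3) and 441 ± 48.4 (n = 2) in the controls SCR and WT (log2 fold changes -1.56 and -1.29, limma adjusted p = 2.1e-06 and 2.8e-05). CBLN4 fell in both comparisons too and CBLN2 in G2/WT, where it was also lower in SCR than in WT. Of the 3 tested neurexophilins, ligands of alpha-neurexins, 2 rose (NXPH2 and NXPH4) and NXPH1 fell in both comparisons. Of the LRRTM proteins, postsynaptic ligands that compete with neuroligins for neurexin, LRRTM1 and LRRTM2 fell in G2/SCR and rose in SCR/WT, and none was called in G2/WT.

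The families that work beside the neurexin system also divided. Of the 3 receptor phosphatases, which are presynaptic organizers, PTPRD and PTPRF rose in the 2 comparisons with G2, as did SLITRK3 and SLITRK6 of the SLITRK proteins that bind such phosphatases. SLITRK6 averaged 704 ± 50.8 in G2, 37.5 ± 7.83 in SCR and 149 ± 59.4 in WT (SD over 3, 3 and 2 libraries), and it fell in SCR/WT. SLITRK3 had 1891 ± 91.0 in G2 and 273 ± 25.1 in SCR, with 21.1 and 6.95 in the WT libraries, so that SCR also stood above WT (log2 fold change 4.37, standard error 0.30, limma adjusted p = 1.3e-06). LRRC4C, the netrin-G ligand NGL-1, followed the same order with 245 ± 18.6, 40.5 ± 4.43 and 11.7 ± 1.06, and so did SPARCL1, the astrocyte-secreted organizer hevin, with 276 ± 47.7, 60.8 ± 12.1 and a level at the floor in WT. NTNG2, netrin-G2, had 260 ± 22.7 in G2, 1380 ± 41.7 in SCR and 178 ± 59.2 in WT, and stood out in SCR rather than in G2.

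The adhesion genes that fell included the adhesion receptors of the BAI group and the SALM proteins, several of which bind PSD-95 as neuroligins do. ADGRB1 fell from 827 ± 75.2 in SCR and 1375 ± 4.32 in WT to 199 ± 23.3 in G2 (log2 fold changes -2.05 and -2.79, limma adjusted p = 1.2e-08 and 2.5e-09), and it was also lower in SCR than in WT. LRFN1 and LRFN2 fell in both comparisons, with log2 fold changes between -1.09 and -1.44, and neither was called in SCR/WT. LRFN3 and LRFN4 were not called in any comparison.

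Of the 50 genes of the postsynaptic scaffold list, 47 were tested. In G2/SCR 9 rose and 12 fell, in G2/WT 11 rose and 9 fell (15 and 6 with all libraries scaled to the same total), and in SCR/WT 10 rose and 1 fell, with median log2 fold changes of -0.29, -0.06 and 0.10. Beside these, 15.1%, 17.7% and 10.7% of all tested genes were called higher and 11.8%, 12.2% and 5.63% lower. In both comparisons with G2, 7 genes rose and 7 fell, while DLGAP2 went opposite ways. Those that rose included enzymes and adaptors of plasticity: CAMK2D, a subunit of the calcium/calmodulin-dependent kinase, averaged 2804 ± 114 in the 3 libraries of G2, 1205 ± 30.9 in the 3 of SCR and 1064 ± 134 in the 2 of WT (SD). SIPA1L2 (2768 ± 70.6, 905 ± 23.2 and 1262 ± 62.2), the kinase anchor AKAP5 (895 ± 42.4, 445 ± 35.0 and 429 ± 30.1) and the immediate early gene ARC (879 ± 73.1, 325 ± 16.7 and 464 ± 83.2) were likewise highest in G2, with limma adjusted p between 1.4e-09 and 5.6e-05 over both comparisons.

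Scaffold genes that fell were of both excitatory and inhibitory synapses. IQSEC3, a gephyrin-binding exchange factor of inhibitory synapses, had 36.7, 38.3 and 57.0 in G2, and it averaged 200 ± 4.99 in SCR and 199 ± 56.8 in WT (SD over 3 and 2 libraries). LHFPL4, which links NLGN2 to GABA-A receptors, had 214 ± 20.8 in G2, 509 ± 15.5 in SCR and 521 ± 23.4 in WT. Gephyrin itself (GPHN) was not called, with 1105 in G2, 1348 in SCR and 1455 in WT, and NLGN2 overlapped in all lines. GRIP2, an adaptor of AMPA receptors, had 53.1 ± 4.30 in G2, 227 ± 6.81 in SCR and 126 ± 14.4 in WT. It was also higher in SCR than in WT, as were DLG2 and DLG3, relatives of DLG4, with log2 fold changes of 1.21 and 0.80 (limma adjusted p = 6.3e-05 and 0.022). HOMER1, HOMER2 and HOMER3, which bind SHANK proteins, were not called in any comparison.

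The third list held 23 presynaptic proteins that act behind the neurexins, of which 21 were tested. In G2/SCR 1 rose and 9 fell, in G2/WT 2 rose and 10 fell (3 and 7 with all libraries scaled to the same total), and in SCR/WT 2 rose and 1 fell (6 and 0), with median log2 fold changes of -0.17, -0.49 and 0.08. Shares over all tested genes, in the same order, were 15.1%, 17.7% and 10.7% higher and 11.8%, 12.2% and 5.63% lower. The 9 genes that fell in both comparisons were CASKIN1, PPFIA3, ERC2, BSN, PCLO, RIMS1, RIMS4, RIMBP2 and UNC13A, and RIMS1 was the only one called lower in SCR/WT too. They are mostly proteins of the active zone, where vesicles dock and are primed. PPFIA2 rose in both comparisons with G2 and was also called in SCR/WT. RIMS4 averaged 885 ± 35.5 in G2, 3570 ± 63.7 in SCR and 3375 ± 171 in WT (log2 fold changes -2.01 and -1.93, limma adjusted p = 1.6e-10 and 6.1e-10). UNC13A, which primes vesicles for release, had 2268 ± 81.6, 5256 ± 323 and 4799 ± 800. Among the proteins that bind the neurexin tail directly or in a complex, CASK, APBA1, APBA2, LIN7B and LIN7C were not called in any comparison. CASKIN1, named above, fell in both comparisons with G2. The lists were not tested as sets, so no list is called particular by its counts.

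**Figure D4:**
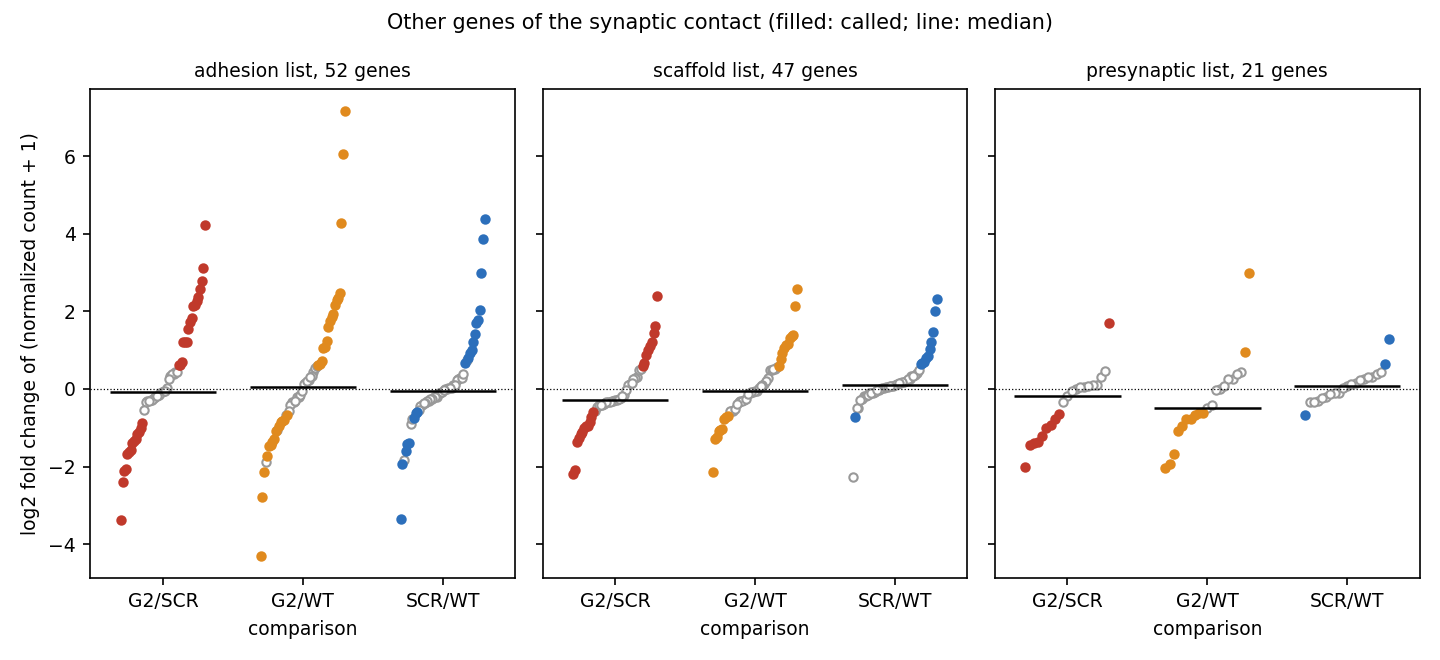
Log2 fold changes, on the scale of normalized count + 1, of the tested genes of the adhesion (52), scaffold (47) and presynaptic (21) lists in G2/SCR, G2/WT and SCR/WT, ordered within each column. Filled points passed the 1.5-fold and unadjusted p thresholds, and black lines are medians. Each of the 3 lists has filled points on both sides in all 3 comparisons. Filled presynaptic points are mostly lower for G2, with 9 lower beside 1 higher against SCR and 10 beside 2 against WT. For SCR/WT, 1 is lower and 2 are higher. Called shares of all tested genes, ordered as the comparisons, are 11.8%, 12.2% and 5.63% lower and 15.1%, 17.7% and 10.7% higher.

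The genes whose pattern over the 8 libraries was nearest to each of the 9, by the root mean square difference of centred log2 values over genes whose mean reached 100, were also found. KIF1A (0.0551) and ACTL6B (0.0796) were nearest to NRXN2. RAB3C (0.0868) and SYP (0.0878) were nearest to DLGAP3, and MYC (0.0809) and ALK (0.0857) to SHANK1. KIF1A is the motor of synaptic vesicle precursors, ACTL6B a subunit of the neuronal BAF complex, and SYP encodes synaptophysin. UGGT2 (0.287) and PLCL1 (0.296) were nearest to NLGN1. NBPF8 (0.0463) and ANO8 (0.0593) were nearest to NLGN2, and SCN3A (0.0535) and WASHC4 (0.0545) to NLGN3. ACAD11 (0.0502) and SORBS3 (0.0502) were nearest to DLG4, and a locus holding PWAR5 (0.251) and PDE4D (0.278) to NRXN3. For NLGN4X, LOC105371703 was nearest at 1.03, a distance that takes in G2 libraries at the floor for both genes. MYC had means of 2409 in G2, 9284 in SCR and 7586 in WT.

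The chromosomal neighbours of the 9 genes were called in both directions in the comparisons with G2. Of the 36 tested genes next to them, a pair on either side of each, 8 were called higher and 6 lower in G2/SCR, while in G2/WT these were 10 and 5, and in SCR/WT 6 and 0. In all, 38.9%, 41.7% and 16.7% of the neighbours were called, beside 15.1%, 17.7% and 10.7% higher and 11.8%, 12.2% and 5.63% lower over all tested genes. SHANK1 had 2 neighbours that fell in both comparisons with G2, SYT3 and CLEC11A, the latter at a distance of 3.54 kb. SYT3 was also called higher in SCR/WT. CLEC11A had means of 232 in G2, 681 in SCR and 602 in WT. Of the 4 neighbours of DLGAP3, 2 were called higher and 1 lower in each comparison with G2. The nearest, an unnamed locus at 1.63 kb, fell in both, with means of 42.4 in G2, 94.2 in SCR and 101 in WT. TMEM35B, on the other side of DLGAP3 at a distance of 51.9 kb, rose from 257 in SCR and 238 in WT to 832 in G2. None of the 4 neighbours of NLGN2 was called in G2/SCR, while TMEM102 was called higher in G2/WT and in SCR/WT. NLGN1 had NCEH1 (at 685 kb) and NAALADL2 (at 565 kb) higher in both comparisons with G2. NCEH1 was also called higher in SCR/WT, and NAALADL2 was at the floor in WT.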

How the data were processed

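Polyadenylated RNA of 3 G2, 3 SCR and 2 WT libraries, grouped by their labels, was sequenced as paired reads. Alignment to hg38 was with STAR and counting over FAST DB genes with featureCounts (Subread 1.5.0), and the authors then divided the counts by DESeq2 size factors. The deposited signal is this normalized count. Strand setting and treatment of reads that match several genes are not given in the sources used here, and the study's filter on intergenic expression was not repeated. The 9 genes and all lists were chosen with earlier results of these data known, and the adhesion families within the first list were formed after their values were seen. A few genes of the adhesion and marker lists are not reported here and enter none of their counts or sums.

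Values were tested with limma 3.58.1 in R 4.3.3 (eBayes with a trend on the mean) after adding 1 and taking log2, which understates changes of low genes, in 1 fit of the 18947 genes whose mean reached 10. Benjamini-Hochberg adjustment was over all of them. A 1.5-fold difference with an unadjusted p of at most 0.05 made a call, and p-values measure the spread between these libraries, which may be partly technical. Whole counts were recovered by dividing each library by its smallest step (100.00% of values whole within 0.1). They served floors and, for G2/SCR, edgeR 4.0.16 and DESeq2 1.42.0, since the step of WT replicate 2 is too near 1 to check. By the same threshold, edgeR's quasi-likelihood test called 2909 genes higher and 2184 lower in G2/SCR, against 2858 and 2230 by limma. Floors cover counting error only. The procedure was tested on simulated data. Named from each list were up to 4 genes higher and 4 lower in both comparisons with G2 and up to 3 called in SCR/WT, by size and with a mean of at least 100. The other genes named were added after their values were seen. Coordinates are those of the table (hg38), and RefSeq promoter sequences (GRCh38.p14) start at the same bases for NLGN1, NLGN2 and NLGN4X. Alternatives were another scaling, pseudocounts of 0.5 and 5, filters, fold thresholds, adjusted p, no variance trend, a replicate block, each library left out and only the lines compared.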

Additional observations from a re-analysis of the deposited data

How the results depend on the processing

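No alternative reversed the log2 fold change of any of the 9 genes in a comparison where that gene was called. Among values that were not called, the sign changed under at least 1 alternative for NLGN1, NRXN2 and DLGAP3 in SCR/WT, NLGN2 in G2/WT and NRXN3 in all 3 comparisons. Over the 9 genes 430 alternative values stayed within the spread of the replicates while 14 did not. Many of the 430 could not move. Line means are the same with another filter, without the variance trend or without a library of the line not compared. The spread was also wide where the WT libraries lay apart. For NLGN1 in SCR/WT it was 1.01, so that -0.56 and 0.86 both counted as within it. Scaling all libraries to the same total moved the median of all tested genes from -0.01 to -0.10 in G2/SCR, from 0.00 to 0.19 in G2/WT and from 0.01 to 0.29 in SCR/WT. Of the counts of called list genes, 160 stayed within 1.5 times the main count and 8 did not. The latter were 19 adhesion genes in G2/SCR and 6 scaffold genes and 1 presynaptic gene in SCR/WT with a mean of at least 100 (fewer genes tested), 13 and 5 scaffold genes in G2/SCR and SCR/WT and 5 and 1 presynaptic genes in G2/WT and SCR/WT at a fold of at least 2, and 6 presynaptic genes in SCR/WT with all libraries scaled to the same total. With each library left out, the adhesion counts ran from 28 to 31 in G2/SCR, 30 to 32 in G2/WT and 18 to 21 in SCR/WT, the scaffold counts from 18 to 21, 19 to 23 and 9 to 12, and the presynaptic counts from 9 to 10, 10 to 12 and 2 to 4. The replicate numbers did not pair the libraries (deviations of same-numbered libraries correlated between -0.17 and 0.15 over 13065 genes), and a fit with the number as a replicate block called 30 adhesion, 21 scaffold and 10 presynaptic genes in G2/SCR and no longer called DLG4 in G2/WT. NRXN3 and NLGN4X in G2 are limited by depth.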
